A study of Danio rerio with 5 samples.

Results

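Interior sites called for both Drl and Blf are places in the zebrafish genome, away from chromosome ends, where each of these zinc-finger proteins gave a peak in both of its libraries. There were 848 of them among 11333 nuclear sites. The samples were sorted RFP-positive haematopoietic progenitors of embryos at 20 hours post fertilisation. Every group, the input included, was of the genotype blf-/-;drl 4KO; the labels do not spell out 4KO. By the genotype labels, embryos behind the 2 Drl-FLAG libraries had received drl-Flag mRNA and those behind the 2 Blf-FLAG libraries blf-Flag mRNA. A further library, the input, had no antibody and carried the drl-Flag genotype label; its values were not used here. The design text also assigns 1 mRNA to each, whereas the extraction protocol names both for all libraries; had both been given together, the antibody could not tell the factors apart. The tagged proteins came from injected mRNA and not from the native genes. The promoter behind RFP is not named in the labels, and the cell type could not be checked against marker genes, since no expression was measured.

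Peaks from any of the 4 lists were merged into 1 site when they shared 1 bp or more. A site was kept when all 4 lists had a peak in it, which 1126 sites met. Of these, 208 were dropped because their centre lay within 1 Mb of a chromosome end and another 70 because they lay on chromosome 4 from 30 Mb. The sites were thus chosen by the calls and positions of these 4 lists, so the values given here are descriptions and no p-value was computed. Of 9224 interior sites of any kind, 9.19% were called for both factors. Calls by both lists of a factor covered 40.7% of the interior sites for Drl-FLAG and 32.7% for Blf-FLAG. The 848 sites made up 22.6% of interior Drl sites (exact Clopper-Pearson 95% interval 21.3 to 24.0) and 28.1% of interior Blf sites (26.5 to 29.8). Such intervals hold counting error alone and take each site as independent, although some sites stood in runs.

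Drl (draculin) and Blf (bloody fingers) belong to the zinc-finger proteins of the C2H2 type, whose fingers read short stretches of DNA in the major groove. In zebrafish embryos both genes are expressed in mesoderm that forms the first blood cells, and drl is widely used as a marker of the lateral plate mesoderm. CUT&Tag locates a protein by tethering a transposase to its antibody, here anti-FLAG, so that DNA beside the protein is cut and tagged in place. The point of highest coverage in a peak, its summit, is the best single estimate of where the protein sat, and its precision depends on the number of fragments there.

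Background coverage worked out from the peak values was 0.919 and 0.920 fragments per base for Drl-FLAG, against 0.313 for each Blf-FLAG list. At the shared sites the 2 lists of a factor were nearly the same. Where their summits lay within 100 bp and held at least 40 fragments on average, the dispersion of the fragment counts (squared difference over sum, 1 for independent Poisson counts) was 0.340 over 131 sites for Drl-FLAG. For Blf-FLAG it was 0.217 over 64 sites. The lists of a factor thus differed by less than the sampling noise and were counted as 1 sample, so a difference between factors has no replicate check and carries no SD.

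Most shared sites ranked above the middle of each list, without being confined to the top. Fold enrichment is the authors' ratio of coverage to local background at the summit, with 1 added to each in the MACS2 formula. Its Drl-FLAG median was 7.96 in each list, with 90% of sites below 15.9 and 16.2. For Blf-FLAG the medians were 6.38 and 6.39, with 90% of sites below 14.5 and 14.1. Folds of the 2 factors rest on different depths, so ranks within a list were used to set them side by side. The median site stood at percentile 73.0 and 73.3 of the Drl-FLAG lists and 69.4 and 69.0 of the Blf-FLAG lists. Interior sites called for Drl only had a median fold of 6.58 in each list, and those called for Blf only 5.33. A shared site had to pass 4 lists and the others 2, which favours higher ranks where the signals of the factors go together. The overlap rule can favour them too, since a wider peak is more likely to meet a peak of the other factor. Shared sites were divided into 4 equal parts by mean percentile of fold over the 4 lists. Their median width was 704 bp in the lowest part and 883.5 bp in the highest. The parts of these rules and of width in the higher ranks were not tested.

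How closely the 2 factors followed each other at a site depended on the measure. By fold, above percentile 75 of the lists of both factors stood 218 sites (25.7%, 22.8 to 28.8), and below percentile 50 of both 109 sites (12.9%, 10.7 to 15.3). Whatever the other factor, 405 sites were above percentile 75 for Drl and 352 for Blf. With a −log10 q of at least 5 in all lists, the share above percentile 75 for both was 49.3% (218 of 442 sites). With 2000 peaks per list it was 71.6% (217 of 303 sites). The number of such sites hardly changed while lower sites left, so the rise was built into the stricter calls. Another 87 sites were above percentile 75 for Drl and below percentile 50 for Blf, and 75 showed the reverse. Sites high for one factor and low for the other were together fewer than those high for both. The choice favoured this order, since a kept site had a call in every list and many stood above percentile 75 for each factor. The order of these counts thus does not show how closely the factors followed each other. Across the 848 sites, the mean folds of the 2 factors had a Spearman correlation of 0.37 and a Pearson correlation of 0.49 on the log10 scale. Between the lists of one factor, which differed by less than sampling noise, the Spearman values were 0.93 and 0.92. Each fold also contains a control background. With −log10 p in place of fold the Spearman value was 0.50. Fragment numbers at the summit gave Spearman values of 0.63 to 0.64 over the pairs of lists of different factors (830 sites). These numbers are not corrected for background. Over the same pairs and sites, the background relative to the genome-wide value gave Spearman values of 0.73 to 0.75. Its part in the higher values for fragments was not tested.

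The weakest of the 4 calls at a site, by −log10 q, was from a Blf-FLAG list, of lower depth, at 588 sites (69.3%, 66.1 to 72.4). A −log10 q of at least 5 was reached by Drl-FLAG in each list at 682 sites, by Blf-FLAG in each list at 516 sites and in all 4 lists at 442 sites. With 2000 peaks per list, 303 sites were shared. The median summit held 20 fragments in each Drl-FLAG list and 9 in each Blf-FLAG list. At the lowest sites these numbers were 8 and 4.

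**Figure D1:**
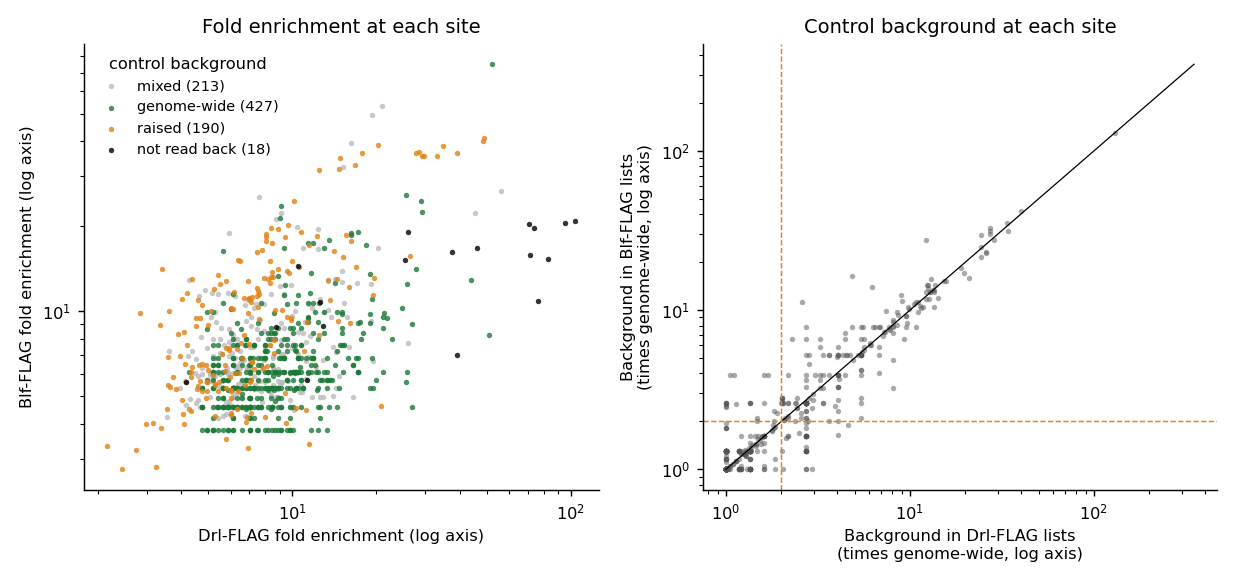
Left, mean fold enrichment in the Drl-FLAG lists (x, log axis) against the Blf-FLAG lists (y, log axis) for each of the 848 sites, coloured by control background; right, that background at the 830 sites where it could be read back, in the lists of the 2 factors as a multiple of the genome-wide value (log axes, dashed lines at 2, solid line at equality). The folds scatter widely (Spearman 0.37) and the steps at low Blf-FLAG fold are single fragments, while many backgrounds lie near the line of equality.

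The control background split the sites into 3 sets. It could be read back in all 4 lists at 830 of the 848 sites. It stood at the genome-wide value (within 5%) in every list at 427 sites (51.4%, 48.0 to 54.9) and over 2 times that value in every list at 190 sites (22.9%, 20.1 to 25.9). The remaining 213 were mixed. With 2000 peaks per list the share raised in every list was 39.3%. By Drl-FLAG values the background was raised in both lists at 26.4% of shared sites and at 9.46% of interior Drl-only sites. The Blf-FLAG values gave a raised background at 26.8% of shared sites and 25.1% of interior Blf-only sites. With every site counted, shared sites thus stood apart from Drl-only sites in this respect and lay close to Blf-only sites. Some shared sites stood in runs, and with 1 site per run the share raised in every list was 15.3% in place of 22.9%. The single-factor sites were not reduced in this way, and no test was made of either difference.

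At most sites the background was the same for both factors, in large part because it stood at the genome-wide value. Relative to the genome-wide value, Drl-FLAG 1 and Blf-FLAG 1 were equal within 5% at 603 of 830 sites (72.7%, 69.5 to 75.7). At the 427 sites with the genome-wide value in every list this equality follows from the definition, so it was less common at the others. Whether both factors were called against the same control is not stated. Of 219 sites raised by the Drl-FLAG values, 190 were raised by the Blf-FLAG values too. A raised value could rest on few control fragments. In Drl-FLAG 1, 207 of the 356 backgrounds above the genome-wide value were whole numbers within 0.5%, and 64 of the 227 raised ones were equal to 2. Read as unscaled control fragments, the median raised background there was 3 fragments, so the split between raised and not raised is coarse at single sites.

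Raised sites held more fragments without a higher Drl-FLAG fold. Their medians were 46 Drl-FLAG and 26.25 Blf-FLAG fragments, compared with 17 and 7 at sites of genome-wide background. Over a higher background a peak needs more fragments to reach the same p-value, so larger numbers were built into the calls. The median Drl-FLAG fold was 6.94 at raised and 8.43 at genome-wide background, and the median Blf-FLAG fold 9.05 and 6.09. Folds of the 2 factors followed each other more closely at raised sites (Spearman 0.61, 190 sites) than at genome-wide background (0.41, 427 sites). Each fold has 1 added to coverage and to background before the division. On the scale of the calls the genome-wide background was 0.738 for Drl-FLAG and 0.313 for Blf-FLAG, both below the added 1. The folds are thus not plain ratios to background, least so for Blf-FLAG, and the part of the added 1 in their medians was not tested. The background varied among raised sites and was nearly constant at genome-wide background. Its part in the difference between the Spearman values and in the shared calls was not tested.

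Overlap of the peaks was nearly fixed by the choice of sites, which left adjacent peaks without a shared base to the sites of a single factor. All 848 sites had a direct overlap between a Drl-FLAG and a Blf-FLAG peak. The longest overlap at a site had a median of 476 bp, and at 16 sites it was under 100 bp. At 812 sites (95.8%) each list had exactly 1 peak. Among these, the Blf-FLAG 1 peak lay wholly inside the Drl-FLAG 1 peak at 320 sites and the reverse held at 138. The Blf-FLAG 1 summit fell inside the Drl-FLAG 1 peak at 90.4% of the 812 sites, and the Drl-FLAG 1 summit inside the Blf-FLAG 1 peak at 82.8%. The Drl-FLAG 1 peak was the wider of the pair at 513 sites.

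Joined sites spanned 818 bp at the median and 326 to 13138 bp in all. More than 1 kb was covered by 267 sites (31.5%, 28.4 to 34.7), and more than 2 kb by 43. Peak widths in the single lists had medians of 658 and 650.5 bp for Drl-FLAG and of 534 and 529.5 bp for Blf-FLAG. At interior Drl-only sites the Drl-FLAG medians were 475 bp in both lists, and at interior Blf-only sites the Blf-FLAG medians were 429 and 433 bp. A wider peak is more likely to meet a peak of the other factor, so the choice favoured greater width. Shared sites also held more fragments at the summit. The medians were 20 against 14 at Drl-only sites in each Drl-FLAG list, and 9 against 7 at Blf-only sites in each Blf-FLAG list. The parts of the choice and of fragment number in the width were not tested.

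Summits of the 2 factors were near each other but seldom at the same base. Nearness was favoured by the choice, since every site held overlapping peaks of both factors. The median distance between the mean Drl-FLAG and the mean Blf-FLAG summit was 128.5 bp, with quartiles of 46 and 233 bp. A distance of at most 100 bp was found at 358 sites (42.2%, 38.9 to 45.6), of at most 200 bp at 577 sites and of at most 5 bp at 42 sites. Between the 2 lists of one factor the median distance was 1 bp for Drl-FLAG and 0 bp for Blf-FLAG. The separation between factors thus exceeded the spread between lists, which counted as 1 sample and so give no error between samples. At sites with several peaks the strongest peak of each list was used. Taking the closest pair of summits instead gave a median of 90 bp, and with 2000 peaks per list the median was 82 bp.

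**Figure D2:**
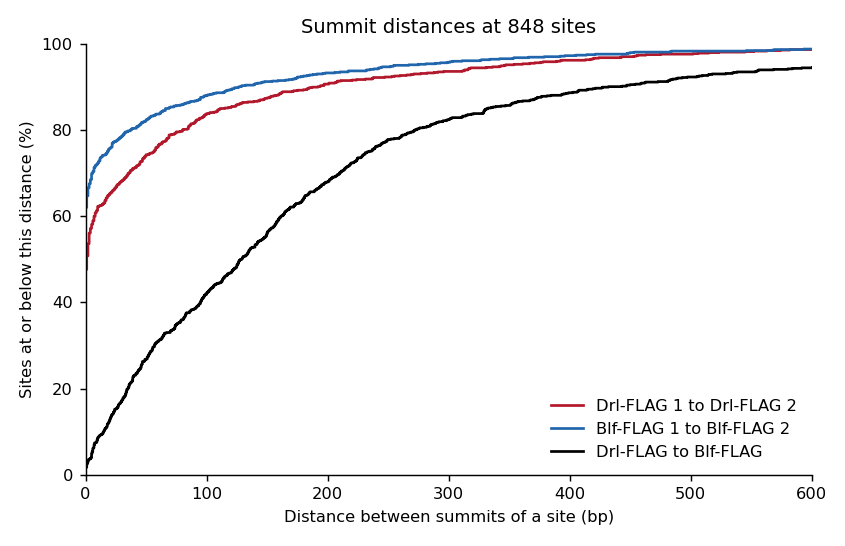
Share of the 848 sites (y, percent) whose summits lay at or below a given distance (x, bp), for the lists of each factor and for the mean summits of the 2 factors; distances over 600 bp, 47 of them between factors, are not drawn. The curves within a factor start at 47.6% (Drl-FLAG) and 62.0% (Blf-FLAG) at 0 bp, and the curve between factors reaches 42.2% at 100 bp.

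Stronger sites had the 2 summits closer together. Sites were ranked by the mean percentile of fold over the 4 lists and divided into 4 equal parts of 212. From the lowest to the highest part the median distance was 152, 159.5, 126 and 91.75 bp, so the first and second parts were alike and the fourth was the closest. Summits within 100 bp made up 36.8% (30.3 to 43.7) of the lowest and 53.8% (46.8 to 60.6) of the highest part. These intervals take sites as independent and hold counting error alone, and the difference was not tested. The 427 sites of genome-wide background, which are a part of the same sites, gave 33.0% (24.2 to 42.8) in the lowest and 54.2% (44.3 to 63.9) in the highest part. Taken whole, they had a median distance of 130 bp, with 41.9% (37.2 to 46.8) within 100 bp. At the 190 sites with background raised in all lists the median was 78.75 bp, with 55.8% (48.4 to 63.0) within 100 bp. The stronger sites also had more fragments at the summit, with medians of 36 (Drl-FLAG) and 16.5 (Blf-FLAG) in the highest part and 14 and 6 in the lowest. The parts of fragment number and of background in the distance were not tested.

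Width went the other way. Divided into 4 equal parts by width, the median distance was 86.5, 120, 152 and 208 bp from the narrowest to the widest part. Both summits lie inside the joined site, and peaks set further apart make it wider, so this order was built into the measure. Among sites up to 1 kb wide the median distance was 76.75 bp in the highest part by rank and 129 bp in the lowest. Their median widths were 667 and 638 bp. Median fragments were 31.5 (Drl-FLAG) and 14 (Blf-FLAG) in that highest part and 12.5 and 6 in that lowest part. The parts of width and of fragment number in this difference were not tested.

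**Figure D3:**
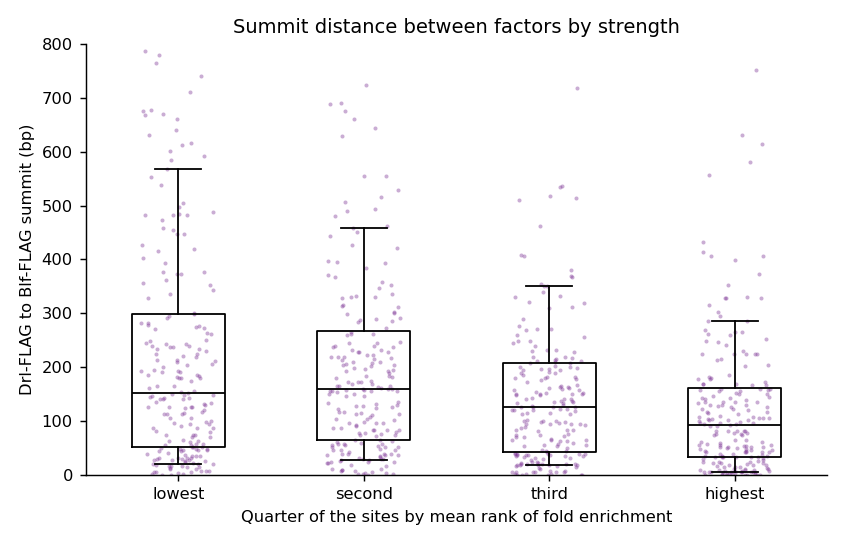
Distance between the mean Drl-FLAG and mean Blf-FLAG summit (y, bp) in 4 equal parts of the sites by mean rank of fold (x); boxes give quartiles and median, whiskers the 10% and 90% points, dots single sites, and 21 sites over 800 bp are not drawn. The medians are 152, 159.5, 126 and 91.75 bp.

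The strongest shared sites with background at the genome-wide value in every list are named here, with GRCz11 positions as in the lists. Genes and sequence at these positions were not used here, because no annotation of that build was used. First came chromosome 6, 17723494 to 17724600, with Drl-FLAG folds of 45.8 and 59.7 at 98 and 128 fragments and Blf-FLAG folds of 70.8 and 79.2 at 92 and 103 fragments. It held the highest fold of both Blf-FLAG lists, and the summits of the 2 factors lay 24 bp apart. On chromosome 10, 44362973 to 44363580, the Drl-FLAG folds were 30.6 and 27.4 and the Blf-FLAG folds 27.4 and 22.1. Both factors were high at this site, and their summits lay 14.5 bp apart.

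Chromosome 2, 14503691 to 14505834, followed with Drl-FLAG folds of 26.0 and 25.05, Blf-FLAG folds of 23.6 and 28.2, and summits 10.5 bp apart. Chromosome 22, 25166432 to 25167836, had Drl-FLAG folds of 29.7 and 28.7 and Blf-FLAG folds of 26.7 and 19.0, with a distance of 5.5 bp. On chromosome 19, 12583064 to 12583783, the folds were 17.2 in both Drl-FLAG lists and 19.8 and 18.3 for Blf-FLAG, with a distance of 9.5 bp. At all of these 5 sites the distance was below 25 bp, which 130 of the 848 sites (15.3%) reached. Over all shared sites, the 10 highest by mean percentile were the chromosome 6 site, 8 sites of a run on chromosome 18 from 30025949 to 30071382 and a site on chromosome 8, 38938958 to 38940914. The last had the highest Drl-FLAG fold of the shared sites in each list (110 and 97.5), with Blf-FLAG folds of 22.1 and 19.8 and summits 95 bp apart.

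Sites with unequal ranks marked the other extreme. The 5 with the largest excess of Drl over Blf rank included 4 at genome-wide background, on chromosomes 3, 19, 23 and 15, with 20 to 28 Drl-FLAG fragments and 4 Blf-FLAG fragments in each list. No Blf-FLAG peak had fewer fragments, so the Blf call at these sites rests on the least that a list holds. The first of the 5, on chromosome 1 from 28263431 to 28264098, had Drl-FLAG folds of 11.3 and 11.6, Blf-FLAG folds of 3.50 and 3.26 and a background of 24.4 to 30.1 times the genome-wide value. The 5 with the largest excess of Blf over Drl rank lay on chromosome 15 (3 sites), 2 and 11. All of these had Drl-FLAG backgrounds of at least 3.02 times the genome-wide value. The Blf-FLAG backgrounds were 1.61 and 1.69 times that value at the site on chromosome 2 and at least 2.62 times at the others. On chromosome 15, 7230985 to 7231739, Blf-FLAG folds were 14.3 and 13.9 at 35 and 34 fragments, and Drl-FLAG folds 3.70 and 3.12 at 31 and 26 fragments.

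The 5 widest sites are given next. On chromosome 15 a site ran from 14232065 to 14245202, and on chromosome 7 from 4253912 to 4265297, that is 13138 and 11386 bp. Their −log10 q values reached 5110 and 5125 in Drl-FLAG 1, while the folds were 26.0 and 25.4, both at percentile 99.0 over the Drl-FLAG lists. A further site on chromosome 7, 4267967 to 4271975, began less than 3 kb beyond the second. At these 3 sites neither fragment number nor background could be read back in any list, because the p-values were too small. They are thus not in the shares of raised background. At a nearby shared site on chromosome 15, 14248686 to 14250411, the Blf-FLAG background was 322 times the genome-wide value, the highest read back at any shared site. The other wide sites, on chromosome 20 (12920145 to 12925113) and chromosome 1 (28275958 to 28280532), had Drl-FLAG folds of 71.4 and 82.9 and Blf-FLAG folds of 15.5 and 15.2 in the first lists. The summits of the 2 factors lay 1278 and 1466.5 bp apart there, the latter being the longest distance at any shared site.

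Shared sites were found in the interior of all 25 chromosomes, at 0.680 per Mb overall. The lowest density was 0.382 per Mb on chromosome 12 and the highest 1.34 per Mb on chromosome 8, followed by 1.17 per Mb on chromosome 4 before 30 Mb. Chromosome 8 held 70 shared sites, of which 32 lay between 34 and 35 Mb. Without that stretch it held 0.741 per Mb, near the median chromosome (0.669). The share of interior Drl sites that were also called for Blf ranged from 16.0% on chromosome 16 (26 of 163 sites) to 36.6% on chromosome 4 (34 of 93 sites).

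**Figure D4:**
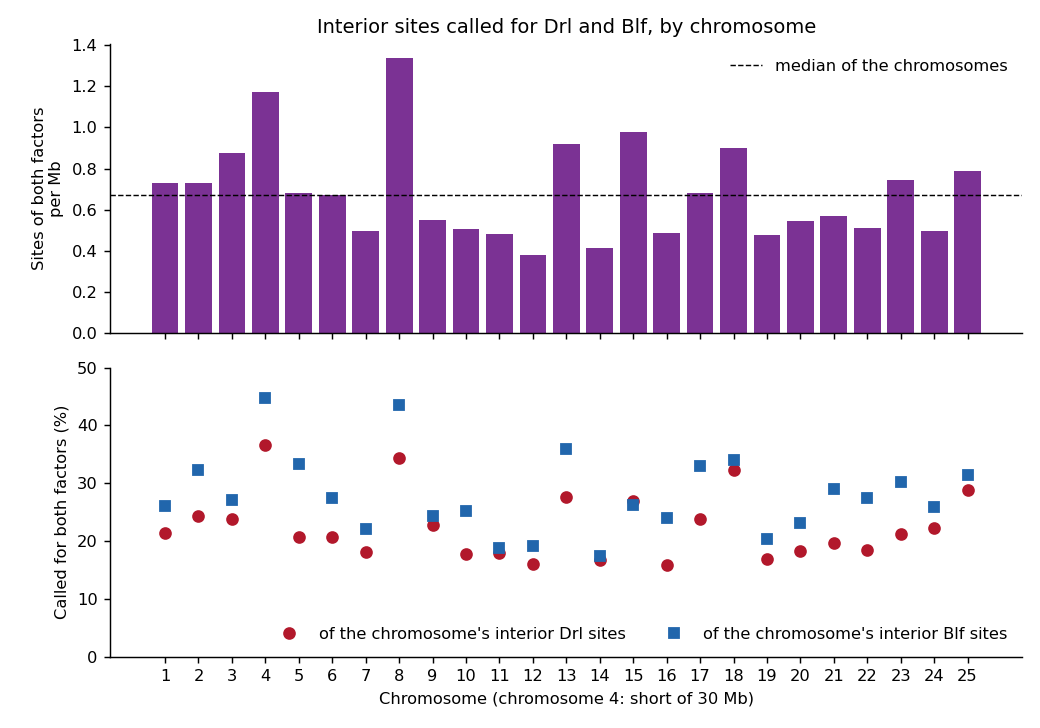
Top, interior sites called for both factors per Mb on each chromosome (bars, dashed line at the median of 0.669); bottom, the percentage of each chromosome's interior Drl sites (circles) and Blf sites (squares) called for both. Chromosomes 8 and 4 have the highest density and the highest shares.

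Part of the shared sites stood in runs. Another shared site lay within 20 kb of 200 sites (23.6%, 20.8 to 26.6). Among interior Drl-only sites 22.8% had another Drl-only site within that distance, and among Blf-only sites 15.3%, but these sets differ in size and so in the number of neighbours to be found. Joining neighbours up to 20 kb apart left 709 separate places, with 18 runs of 4 or more sites that held 106 sites. Background was raised in all lists at 74 of 101 sites in these runs (73.3%, 63.5 to 81.6) and at 81 of 645 lone sites (12.6%, 10.1 to 15.4). Sites of a run were often alike in this, with 12 of 12 raised in a run on chromosome 25 and 0 of 8 in one on chromosome 13. The interval for the runs takes their sites as independent and is thus too narrow. Median Blf-FLAG folds were 10.8 in runs and 6.09 at lone sites, while Drl-FLAG folds were 7.48 and 8.16. In the runs the Blf-FLAG median was thus higher and the Drl-FLAG median was not, beside a background that was raised more often, and its part was not tested. The 1 added to coverage and background in each fold weighs more at the lower Blf-FLAG depth, and its part was not tested either.

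The run with the most sites held 13 on chromosome 18 between 30025949 and 30071382. Drl-FLAG folds, as means of the lists, ran from 10.6 to 56.3 with a median of 33.5, and Blf-FLAG folds from 14.3 to 41.1 with a median of 35.4. Both factors stood near the top of their lists, at median percentiles of 99.4 and 99.7. The distance between the mean summits of the 2 factors was 159 to 160 bp at 3 sites. At 5 sites it was 39.5 to 42 bp irrespective of direction, but there the 2 Drl-FLAG lists had unlike summits. These summits lay 84 bp apart at the site from 30039987 to 30041197 and 69 bp apart at the rest of the 5. The 39.5 to 42 bp are thus averages over the lists and not a distance seen in a single list. Background was raised in all lists at 11 of the 13 sites. Neighbouring Drl-FLAG summits were 1.85 to 2.24 kb apart in 6 of 12 spacings.

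A second run, of 12 sites on chromosome 25 between 18781581 and 18867849, had strong Blf-FLAG and ordinary Drl-FLAG folds. The median fold was 17.1 for Blf-FLAG (percentile 98.0) and 7.77 for Drl-FLAG (percentile 69.8). The summits of the 2 factors were within 5 bp at 7 of the 12 sites, and at 42 of all 848. Spacings between neighbouring Drl-FLAG summits were 4.23 to 4.28 kb in 5 of 11 cases. Background was raised in all lists at each of the 12 sites. A run of 8 sites on chromosome 13, 25313568 to 25356481, had raised background in all lists at none of its sites, but all 8 were of mixed background. At the site from 25355557 to 25356481 it was 2.71 and 1.61 times the genome-wide value for Drl-FLAG and 2.62 times in each Blf-FLAG list. This run had a Drl-FLAG median fold of 7.09 and a Blf-FLAG median fold of 9.29. The ranges of spacing and distance in both runs were picked after the values were seen.

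Other runs differed in the ranks of the 2 factors. On chromosome 8, 8 sites between 34524757 and 34574084 and 7 sites between 34434445 and 34451358 had median Drl-FLAG folds of 7.30 and 6.93 and Blf-FLAG folds of 11.6 and 11.3, with Drl-FLAG percentiles of 64.9 and 58.6 and Blf-FLAG percentiles of 94.2 and 93.6. All 15 of these sites had raised background in all lists. On chromosome 6, 5 sites between 24249468 and 24276546 were strong for both factors, with median folds of 13.6 and 12.8, and 1 of them had raised background. On chromosome 2, 5 sites between 14660562 and 14685750 had low median folds of 3.17 and 4.04 at raised background in all lists at each of the 5. Their Drl-FLAG summits held 24 to 74 fragments, above the median of 20 over all shared sites. On chromosome 1, 4 sites between 28261412 and 28280532 had median folds of 29.5 and 12.1, at percentiles of 96.9 for Drl-FLAG and 92.5 for Blf-FLAG, and this run holds both the largest Drl excess and the longest summit distance described above.

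**Figure D5:**
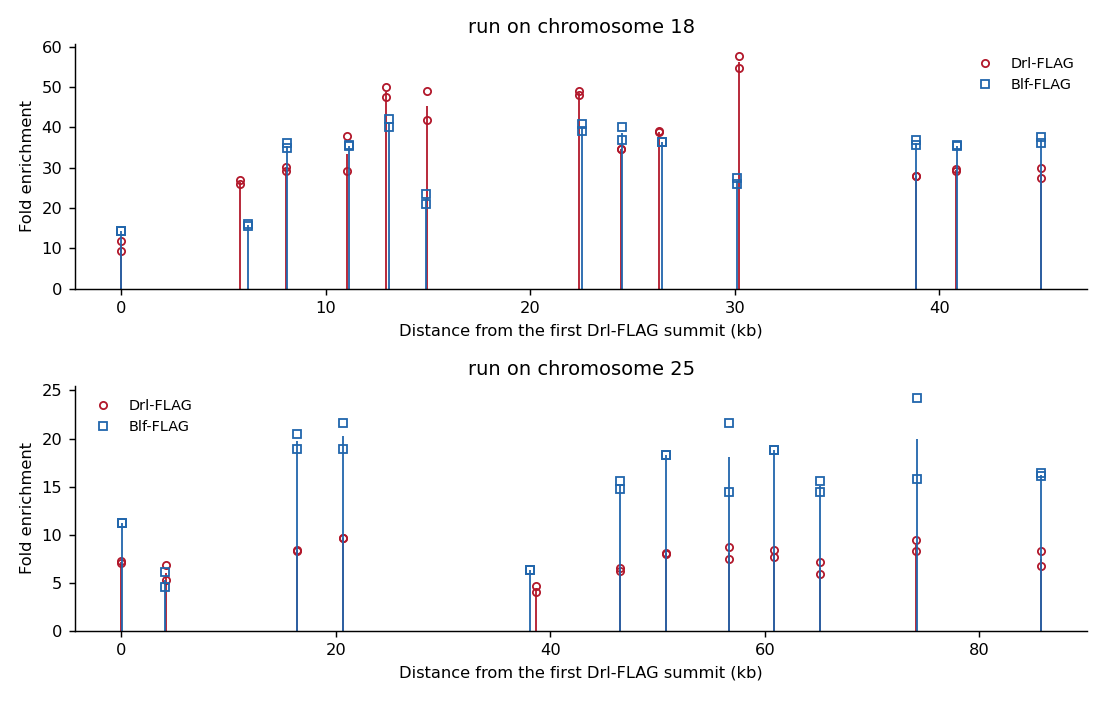
Fold enrichment (y) of the shared sites in the runs on chromosome 18 (13 sites) and chromosome 25 (12 sites) by distance from the first Drl-FLAG summit (x, kb); open circles and squares are the single lists and lines reach to the mean of the lists of a factor. On chromosome 18 the median folds are 33.5 and 35.4, and on chromosome 25 the Blf-FLAG folds stand above the Drl-FLAG folds, which rest on another depth, at all sites but 1.

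Sites on either side of each limit of the choice are given next. On chromosome 1, 58566875 to 58567990, a kept site lay 1.01 Mb from the end with Drl-FLAG folds of 18.6 and 15.8 and Blf-FLAG folds of 9.90 and 8.38. On chromosome 18, 49994756 to 49995652, a dropped site 0.990 Mb from the end had Drl-FLAG folds of 11.02 and 12.1 and Blf-FLAG folds of 21.0 and 18.9. On chromosome 4 the last kept site ended at 28887584 and the first dropped one began at 31244834. A further 350 interior sites had a peak in 3 of the 4 lists, with Drl-FLAG 1 missing at 99, Drl-FLAG 2 at 84, Blf-FLAG 1 at 78 and Blf-FLAG 2 at 89. The strongest of these, on chromosome 19 from 1396743 to 1397441, reached folds of 18.9 and 18.1 for Drl-FLAG, and 13.3 in Blf-FLAG 2.

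The smallest direct overlap of the 2 factors' peaks, 1 bp, was on chromosome 15 from 7225905 to 7227427, where the summits of the 2 factors were 1003.5 bp apart. Just outside, a Drl-only site on chromosome 7 (21752171 to 21752476) ended at the base before a Blf-only site began (21752477 to 21753530). Such near misses were few. A Blf-only site lay within 500 bp of 21 of the 2739 interior Drl-only sites (0.767%) and within 5 kb of 103 (3.76%).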

How the data were processed

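CUT&Tag peak lists of 4 anti-FLAG libraries were used. The submitters' processing notes name GRCz11, MACS2, bedtools 2.30.0, SAMtools 1.10, Bowtie2 2.4.2, Picard 2.26.1, FastQC 0.11.9 and bcl2fastq; for their settings and the control used, the sources used here give nothing. For each peak the authors deposited a summit position, a −log10 q-value and −log10 p-value, a fold enrichment and a score for display. The fold enrichment is the ratio of coverage to background, with 1 added to each. Folds are the authors' values and were used to rank peaks within a list.

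Fragment numbers and background at a summit were inferred by inverting the MACS2 formulas (Poisson tail, pseudocount 1), which returned 99.4% of the peaks of each Drl-FLAG list and 99.8% of each Blf-FLAG list within 0.05% of the fold. With a step between pileups 3% too small, at most 5.0% matched in 1000 sampled peaks. The scripts were tested on simulated data. Where −log10 p exceeded 290, no fragment number was inferred. Chromosome ends are the last peak end in any list. Sites were named by a rule: the highest mean percentile of fold, the largest rank excess of either factor, the widest, the highest at genome-wide background and those beside each limit. The sites, the rule and the comparisons were chosen with earlier results of these data known. Gene and sequence context, planned for a reference of the same build, was not run. Python 3.11.15, SciPy 1.17.1 and pandas 2.3.3 were used.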

Additional observations from a re-analysis of the deposited data

How the results depend on the processing

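Of 128 alternative values of 10 results, 75 stayed within the interval, the spread over list pairs or 1.5 times the count of the value reported, and 53 did not. The spread over list pairs was 4.82 bp for the median summit distance and 0.0057 for the Spearman value. It comes from lists that counted as 1 sample per factor and holds no error between samples. Small shifts of these 2 results thus fell outside it. With a reciprocal overlap of 50%, 17.95% of interior Drl and 22.4% of interior Blf sites were shared, the median summit distance was 113.75 bp (46.6% within 100 bp), the Spearman value 0.45, 25.4% of sites exceeded 1 kb and 29.4% were above percentile 75 for both factors. With a −log10 q of at least 5 there were 442 sites, 17.5% of Drl and 34.3% of Blf sites, at 101.25 bp (49.8% within 100 bp), Spearman 0.42, 36.9% over 1 kb, 49.3% above percentile 75 for both, 32.3% with raised background and 27.4% with a neighbour. With 2000 peaks per list there were 303 sites, 30.6% of Blf sites, at 82 bp (55.4% within 100 bp), Spearman 0.41, 39.9% over 1 kb, 71.6% above percentile 75 for both, 39.3% raised and 31.7% with a neighbour. End margins of 0.5 and 2 Mb moved only the Spearman value, to 0.39 and 0.38. The closest pair of summits gave 90 bp and 53.5% within 100 bp. Spearman was 0.50 with −log10 p and 0.41 at genome-wide background. Neighbours within 5 and 50 kb were found at 12.9% and 30.2% of sites. Leaving out 1 list at a time gave 924 to 945 sites, a shared portion of 21.1% to 24.9% for Drl and 22.0% to 31.3% for Blf, 120 to 130.5 bp (41.7% to 45.1% within 100 bp), Spearman 0.33 to 0.38, 28.0% to 29.2% over 1 kb, 24.0% to 25% above percentile 75 for both, 23.0% to 25.5% raised and 24.4% to 24.8% with a neighbour. Alternatives chosen after seeing the data were 1 site per run, with 27.8% over 1 kb and 15.3% raised, genome-wide background, with 23.0% over 1 kb and 21.3% above percentile 75 for both, and a direct overlap of the factors' peaks, which left all 848 sites. Fewer peaks or sites entered the stricter settings; the cause of the other shifts was not tested. No paired analysis was possible because same-numbered lists could be compared only between 1 sample per factor, and the results come from no test. The 4-fragment minimum of the Blf-FLAG lists limits which weak sites could be shared. No anti-FLAG library without a tagged protein is among the labelled samples, and the antibody's own background was not analysed here.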
